A study of Sus scrofa with 6 samples.

Results

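The genes of sterol and fatty acid synthesis were followed in porcine satellite cells (PSCs) between an early and a later time of differentiation. The set was a list of 52 gene symbols covering the mevalonate and cholesterol pathways, their control by sterol regulatory element binding proteins (SREBPs) and liver X receptors (LXRs), sterol transport and esterification, fatty acid synthesis, desaturation and elongation. A symbol on the list was matched to the Ensembl identifier of a row, which found 39 of the 52 among the 28266 rows of the table. Of these 39, 36 had a mean of at least 1 FPKM (fragments per kilobase of gene, scaled to the library's total of counted fragments) over the 6 libraries and were tested.

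Cells make cholesterol from acetyl-CoA by way of mevalonate, isoprenoid diphosphates, squalene and lanosterol, whereas fatty acids are built from the same acetyl-CoA by carboxylation, chain extension and the later insertion of double bonds. When membrane sterol is low, the escort protein SCAP carries SREBPs to the Golgi, where they are cleaved and released to switch on genes of both pathways, and INSIG proteins hold SCAP back when sterol is plentiful. LXRs are receptors for oxysterols that promote sterol efflux and phospholipid remodelling. In skeletal muscle, differentiating satellite cells align and fuse into multinucleated myotubes, a process in which the lipid makeup of the plasma membrane is rearranged.

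The PSCs came from limb muscle of male Yorkshire pigs at 3 days of age, were partly freed of fibroblasts by plating on uncoated dishes, and were differentiated in medium with horse serum. Libraries were made at 24 h and at a later time that the series title gives as 36 h and the sample labels as 48 h, and 36 h is used here. Each group had 3 libraries, numbered 4, 5 and 6. Both groups were read as cells transfected with negative control siRNA because their titles begin with N, the letter the paper uses for such groups, although the labels do not state a siRNA. The extraction label names endometrium, against the tissue label. No source says that the libraries of a group came from separate animals or cultures, so the p-values measure only the spread between these libraries, which may be technical.

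Library totals implied by the FPKM values were 16382890 to 16908165 fragments at 24 h and 18015798 to 21896353 at 36 h, so 1 fragment in a gene model of 1 kb was worth 0.0457 to 0.0610 FPKM. Muscle marker genes summed to 3129 to 5947 FPKM at 24 h and 11920 to 13979 FPKM at 36 h. Of 12 markers 7 were in the table, and 5 passed the threshold of an adjusted p under 0.05 in limma, all higher. Over all genes tested, 16.5% were called higher and 34.4% lower. MYF5 (52.6 to 112 FPKM) and MYOD1 (246 to 386 FPKM), factors of the myogenic lineage, were present in every library. Their means were lower at 36 h without passing the limma test. MYF5 went from 84.7 to 59.9 FPKM (adjusted p = 0.106) and MYOD1 from 316 to 254 FPKM (adjusted p = 0.133). Of the adipocyte markers 6 of 10 were in the table, summing to 6.48 to 6.98 FPKM and 5.39 to 6.76 FPKM. PPARG, PLIN1, PLIN4 and CIDEC lay under 1 FPKM in every library. CEBPA was between 0.815 and 3.05 FPKM and lower at 36 h (adjusted p = 0.0487). LIPE was between 2.85 and 4.57 FPKM, with means of 3.31 and 4.28 FPKM and no overlap (adjusted p = 0.0531). Of CEBPA and LIPE, 1 was called higher and 0 lower after median-ratio scaling, and likewise after quantile normalization. The fibroblast markers in the table, 7 of 10, summed to 931 to 1003 FPKM at 24 h and 830 to 1035 FPKM at 36 h. Of the 6 tested, 3 were called higher and 3 lower. Means rose in COL3A1 (241 to 443 FPKM), PDGFRB (1.62 to 3.87 FPKM) and POSTN (1.74 to 2.81 FPKM). They fell in COL1A2 (693 to 450 FPKM), DCN (18.8 to 6.12 FPKM) and LUM (5.51 to 1.83 FPKM). Blood cell markers (4 of 5) summed to 4.50 to 5.72 FPKM and 1.78 to 3.08 FPKM with PTPRC at 0, CD68 at 0.634 to 2.40 FPKM and CD14 at 1.003 to 3.29 FPKM, the last of which was lower at 36 h (adjusted p = 0.0103), and endothelial markers (3 of 5) to 1.10 to 1.60 FPKM and 1.01 to 1.67 FPKM with KDR at 0. Proliferation markers (10 of 16) summed to 65.9, 87.0 and 169.6 FPKM in replicates 4, 5 and 6 at 24 h and to 27.2 to 34.8 FPKM at 36 h, with 7 lower. Muscle and proliferation markers, and fibroblast markers in both directions, moved with time together with the genes below. Their part in those results was not tested.

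Between 24 h and 36 h, FASN, SCD, INSIG1, TM7SF2 and LPCAT3 rose 2-fold or more on the log2(FPKM + 1) scale and passed the test. ACAT2, at the entry of cholesterol synthesis, was lower (log2 change -0.40, adjusted p = 0.0155), but did not pass after median-ratio scaling (-0.23, adjusted p = 0.0798) or without 36 h replicate 4 (0.0525) or 5 (0.0617). The largest falls were in OSBPL3 and SOAT1, which act on sterol transport and storage. In limma on log2(FPKM + 1), 16 of the 36 members were higher at 36 h with an adjusted p under 0.05, against 16.5% of all genes tested. Another 4 were lower, against 34.4% of all genes, and 16 did not pass. Changes in either direction were called in 50.9% of all genes. Thus 44.4% of the members were called higher and 11.1% lower. The list was chosen with earlier results of these data known, so these shares are a description and their difference from all genes was not tested. The log2 change was above 0 in 26 of the 36 members, with a median of 0.19, where the median over all 14060 genes tested was -0.16.

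As the median of all genes lay below 0 on the FPKM scale, the balance was recomputed with other scalings. After median-ratio scaling, which brought the median of all genes to -0.0033, 21 members were higher and 2 lower, against 23.9% and 22.2% of all genes (46.1% in either direction). After quantile normalization the counts were 18 and 5, against 21.6% and 25.2% (46.8% in either direction). In 19 members all 36 h libraries lay above all 24 h libraries and in 6 all lay below, against 21% and 42.6% of all genes. The count of lower members rested partly on 36 h replicate 4, without which 2 members were called lower.

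**Figure D1:**
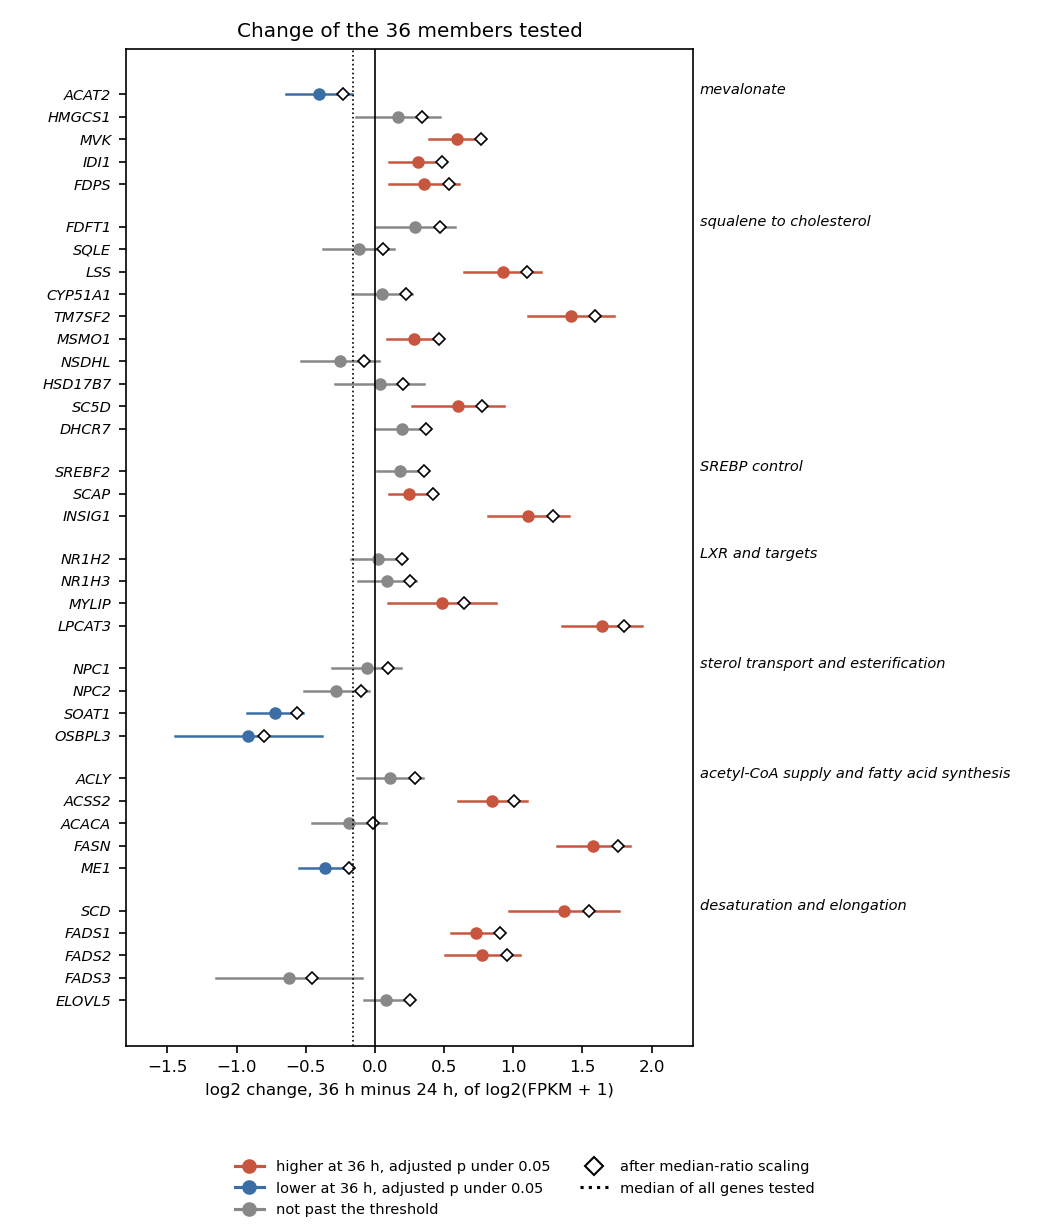
Change of each tested member from 24 h to 36 h, grouped by role. The horizontal axis is the log2 change of log2(FPKM + 1), filled points are limma estimates from 3 libraries a group with bars for the 95% confidence interval, open diamonds are the estimates after median-ratio scaling, and the dotted line is the median of all genes tested, -0.16. LPCAT3, FASN, TM7SF2, SCD and INSIG1 lie past 1, and OSBPL3 and SOAT1 are the farthest to the left.

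The members together summed to 3570, 3479 and 3003 FPKM in 24 h replicates 4, 5 and 6 and to 4801, 5065 and 5274 FPKM in 36 h replicates 4, 5 and 6. The fragments behind them were 0.842%, 0.818% and 0.702% of the library at 24 h and 1.15%, 1.23% and 1.29% at 36 h. Every 36 h library was therefore above every 24 h library. Much of the rise of the sum lay in SCD, with means of 388 and 986 FPKM, and in TM7SF2 (140 and 372), FASN (112 and 339) and INSIG1 (169 and 363). The log2 change was below 0 in 10 of the 36 members. In bulk RNA, a change in the number of cells of a type and a change in RNA per cell cannot be told apart. The libraries of a group were also ordered among themselves: 24 h replicate 6 held the lowest value of its group in 26 of the 36 members (72.2%, against 34.0% of all genes), and it was the 24 h library with the lowest muscle marker sum and the highest proliferation marker sum. The highest 36 h value belonged to replicate 6 in 26 members (72.2%, against 39.1% of all genes). The lowest 36 h value belonged to replicate 4 in 27 members (75%, against 33.7% of all genes). At 24 h, replicate 4 held the highest value in 22 members (61.1%, against 30.4% of all genes).

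In fatty acid synthesis the largest rise was in FASN (ENSSSCG00000029944), fatty acid synthase, which builds palmitate from acetyl-CoA and malonyl-CoA. FASN had 114, 119 and 103 FPKM in 24 h replicates 4, 5 and 6, and 291, 346 and 380.0 FPKM at 36 h. All 36 h libraries exceeded all 24 h libraries, and the means rose 3.02-fold from 112 ± 8.05 to 339 ± 45.0 FPKM (SD, n = 3). The log2 change was 1.58 (SE 0.11, limma adjusted p = 0.00064). Its values rested on 24467 fragments at 24 h and 89690 at 36 h.

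ACACA (ENSSSCG00000017694), acetyl-CoA carboxylase 1, makes the malonyl-CoA that FASN uses, and it did not pass the test. It had 26.6, 26.9 and 21.0 FPKM at 24 h and 20.0, 21.6 and 23.2 FPKM at 36 h, and the groups overlapped. Its log2 change was -0.19 (95% interval -0.45 to 0.08, adjusted p = 0.202). Without 24 h replicate 6, the library with the lowest 24 h value, the change was -0.30 with an adjusted p of 0.0177, whereas after median-ratio scaling it was -0.016 (adjusted p = 0.928) and after quantile normalization -0.086 (adjusted p = 0.568). ACLY (ENSSSCG00000017421), which cleaves citrate into cytosolic acetyl-CoA, had 175, 185 and 164 FPKM at 24 h and 168, 186 and 213 FPKM at 36 h (log2 change 0.11, interval -0.13 to 0.35, adjusted p = 0.380). Its groups overlapped too. The change of ACLY was 0.021 without 36 h replicate 6, 0.067 without 24 h replicate 6, 0.19 without 36 h replicate 4 and 0.29 after median-ratio scaling (adjusted p = 0.0745).

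The other route to cytosolic acetyl-CoA, from acetate, goes through ACSS2 (ENSSSCG00000007286), which had 6.69, 6.59 and 5.33 FPKM at 24 h and 11.1, 12.0 and 12.8 FPKM at 36 h. Every 36 h value was higher, a 1.93-fold rise of the mean (log2 change 0.85, SE 0.10, adjusted p = 0.00155). ME1 (ENSSSCG00000004454), the malic enzyme that supplies NADPH, went the other way, from 28.0, 26.2 and 23.2 FPKM to 20.1, 19.7 and 19.8 FPKM. It was 1.30-fold lower with no overlap (log2 change -0.36, SE 0.08, adjusted p = 0.0102), but after median-ratio scaling the change was -0.19 with an adjusted p of 0.146. In all, 2 of the 5 tested members of this role rose, 1 fell and 2 did not pass. The shares over all genes were 16.5% higher and 34.4% lower.

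SCD (ENSSSCG00000010554), stearoyl-CoA desaturase, introduces the first double bond into saturated fatty acids and had the highest FPKM of the members at 36 h. The 24 h libraries held 459, 418 and 288 FPKM and the 36 h libraries 982, 997 and 979 FPKM. The 3 values at 36 h lay close together (986 ± 9.84 FPKM), whereas those at 24 h were spread (388 ± 89.0 FPKM) by a low value in replicate 6. The mean rose 2.54-fold (log2 change 1.37, SE 0.17, adjusted p = 0.00157), and the log2 change was 1.17 without 24 h replicate 6.

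The front-end desaturases FADS1 and FADS2, which act in turn in making long polyunsaturated fatty acids, rose by about the same factor. FADS1 (ENSSSCG00000024015), the delta-5 desaturase, had 30.6, 31.3 and 34.1 FPKM at 24 h and 50.7, 52.6 and 58.5 FPKM at 36 h, a 1.69-fold rise (log2 change 0.73, SE 0.08, adjusted p = 0.00112). FADS2 (ENSSSCG00000013072), the delta-6 desaturase, had 100.4, 111 and 136 FPKM and then 190.3, 194 and 207 FPKM, a 1.71-fold rise (log2 change 0.78, SE 0.11, adjusted p = 0.00247). Neither had overlapping groups, and in both 24 h replicate 6 was the highest of its group, unlike in SCD and FASN.

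Their paralog FADS3 (ENSSSCG00000013073) moved in the opposite direction without passing the test. Its values were 22.4, 23.4 and 34.7 FPKM at 24 h and 12.9, 16.9 and 21.6 FPKM at 36 h, with no overlap but a wide spread in either group. The log2 change was -0.62 (interval -1.15 to -0.09, adjusted p = 0.0533). With the replicate number as a block the adjusted p was 0.00519, with the recovered fragments in voom 0.0421, without 24 h replicate 4 0.0491 and without 36 h replicate 6 0.0331. After median-ratio scaling the change was -0.45 with an adjusted p of 0.125.

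Among the elongases, ELOVL5 (ENSSSCG00000024149), which extends polyunsaturated chains, had 41.2, 40.2 and 37.0 FPKM at 24 h and 39.9, 42.3 and 42.8 FPKM at 36 h, and the groups overlapped (log2 change 0.08, adjusted p = 0.357). After median-ratio scaling the change was 0.25 with an adjusted p of 0.0428. ELOVL4, which makes very long chains, had 0.499, 0.782 and 1.43 FPKM at 24 h and 0.292, 0.370 and 0.337 FPKM at 36 h, on 133 and 60 fragments. Its groups did not overlap, and the mean was 2.72-fold lower at 36 h. ELOVL2, which extends polyunsaturated chains further, had 0.0727, 0.300 and 0 FPKM and then 0, 0 and 0.0682 FPKM, on 5 fragments and 1 fragment. Neither reached the minimum mean of 1 FPKM of the reported fit. In the fit with no filter, the log2 change was -0.49 in ELOVL4 (interval -0.91 to -0.07, adjusted p = 0.0768) and -0.13 in ELOVL2 (adjusted p = 0.374). The summed FPKM of desaturases and elongases went from 654, 624 and 531 to 1276, 1303 and 1310, most of which was SCD.

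**Figure D2:**
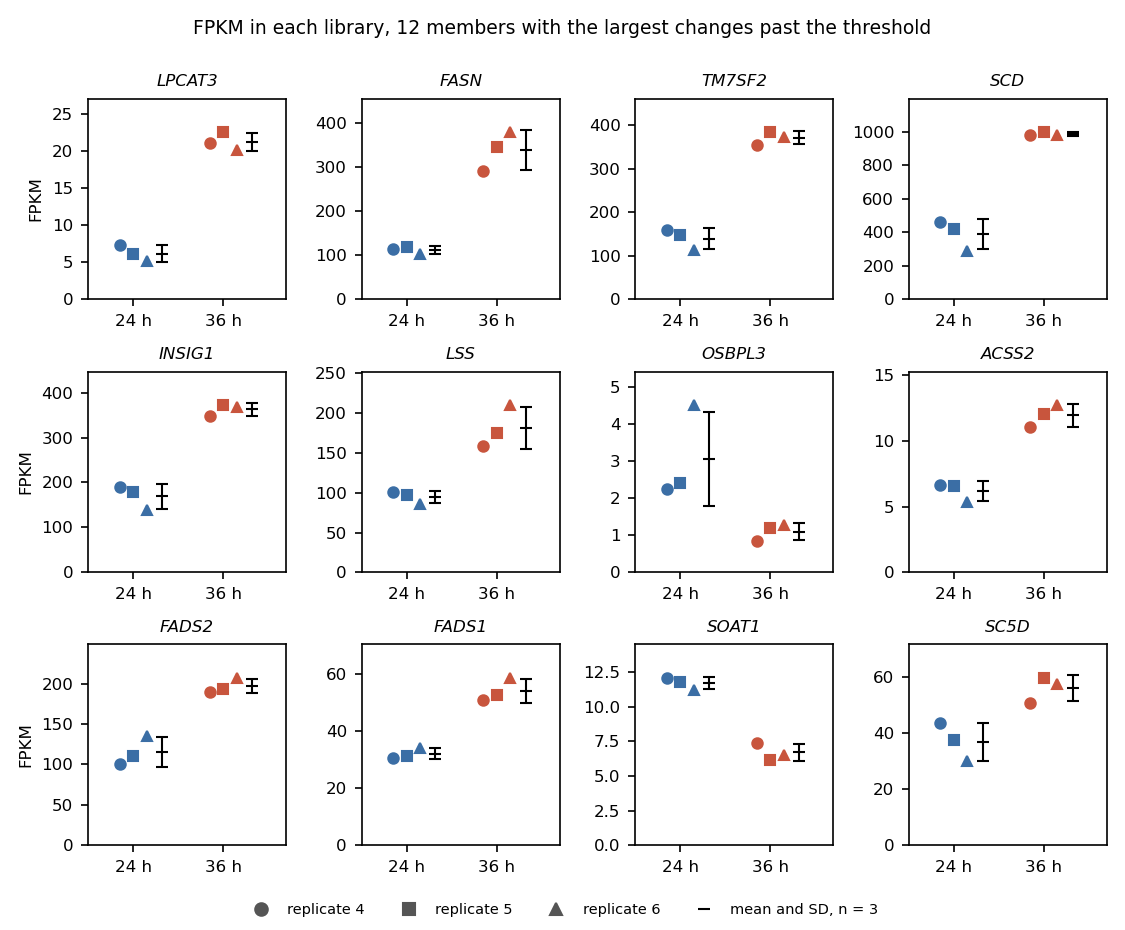
FPKM in each library for the 12 members with the largest log2 changes past the threshold, 3 libraries at 24 h (blue) and 3 at 36 h (red). The vertical axis is FPKM from 0 in each panel, symbols mark the replicate number, and black bars give the mean and SD of the group. In all 12 panels the groups do not overlap, and OSBPL3 and SOAT1 are the only 2 panels in which the 36 h libraries are lower.

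The mevalonate part of the cholesterol pathway was mixed. Its entry enzyme ACAT2 (ENSSSCG00000004049), which joins 2 acetyl-CoA into acetoacetyl-CoA, had 56.2, 61.4 and 68.7 FPKM at 24 h and 44.9, 43.3 and 51.8 FPKM at 36 h. It was 1.33-fold lower with no overlap (log2 change -0.40, SE 0.10, adjusted p = 0.0155). The adjusted p was 0.0798 after median-ratio scaling, 0.0525 without 36 h replicate 4 and 0.0617 without 36 h replicate 5. In RefSeq (Sscrofa11.1) ACAT2 overlaps TCP1, a chaperonin subunit, which was at 138, 130.4 and 105 FPKM and then 88.9, 87.1 and 87.2 FPKM. The strand of the reads is not stated, so fragments of these genes may not be told apart. In all, 9 members overlap another RefSeq gene: ACAT2, NR1H3, LPCAT3, NPC1 and ACACA a protein-coding gene, SC5D, FADS2 and FADS3 a long non-coding RNA, and OSBPL3 a pseudogene.

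HMGCS1 (ENSSSCG00000016872), which makes HMG-CoA, had 157, 145 and 112 FPKM at 24 h and 145, 154 and 162 FPKM at 36 h, with overlapping groups (log2 change 0.17, interval -0.14 to 0.47, adjusted p = 0.308). The lowest of the 6 libraries was 24 h replicate 6. Without it the change was 0.024, without 24 h replicate 4 it was 0.26, and after median-ratio scaling 0.34 (adjusted p = 0.099).

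MVK (ENSSSCG00000009931), mevalonate kinase, had 31.2, 31.1 and 27.3 FPKM at 24 h and 42.3, 45.5 and 49.2 FPKM at 36 h, a 1.53-fold rise with no overlap (log2 change 0.60, SE 0.08, adjusted p = 0.0023). IDI1 (ENSSSCG00000029066), the isomerase of isopentenyl diphosphate, had 108, 103 and 92.4 FPKM and then 116, 125 and 136 FPKM, a rise of 1.24-fold (log2 change 0.31, SE 0.09, adjusted p = 0.0240). FDPS (ENSSSCG00000006512), farnesyl diphosphate synthase, had 527, 529 and 414 FPKM and then 636, 619 and 616 FPKM, a rise of 1.27-fold (log2 change 0.36, SE 0.11, adjusted p = 0.0299). MVK kept its call in every alternative, and the other 2 did not. IDI1 was at an adjusted p of 0.0517 with the replicate block, 0.0598 without 24 h replicate 5, 0.0735 without 36 h replicate 5 and 0.0699 without 36 h replicate 6. FDPS was at 0.0538 with no filter and at 0.0813, 0.0833 and 0.0694 without 36 h replicates 4, 5 and 6, and its log2 change was 0.24 without 24 h replicate 6.

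From squalene to cholesterol, 4 of 10 tested members rose and the other 6 did not pass, where 16.5% of all genes were called higher. The largest rise was in TM7SF2 (ENSSSCG00000013004), a sterol C14-reductase, from 159, 148 and 113 FPKM at 24 h to 356, 384 and 374 FPKM at 36 h. The groups were far apart, at 139.9 ± 24.3 and 372 ± 14.5 FPKM, a 2.66-fold rise (log2 change 1.42, SE 0.13, adjusted p = 0.000832). LSS (ENSSSCG00000021418), which folds squalene epoxide into lanosterol, had 101, 97.6 and 85.6 FPKM and then 159, 175 and 210.3 FPKM. It rose 1.92-fold with no overlap (log2 change 0.92, SE 0.12, adjusted p = 0.00172). SC5D (ENSSSCG00000028517), the C5-desaturase near the end of the pathway, had 43.4, 37.5 and 29.8 FPKM and then 50.7, 59.6 and 57.5 FPKM. It rose 1.52-fold, again with no overlap (log2 change 0.60, SE 0.14, adjusted p = 0.0118).

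MSMO1 (ENSSSCG00000008857), a C4-methylsterol oxidase, rose by less, from 182, 170.0 and 153 FPKM to 194, 209 and 211 FPKM, or 1.22-fold (log2 change 0.28, SE 0.08, adjusted p = 0.0260). Its groups did not overlap, but the adjusted p was 0.0702 without 24 h replicate 5, 0.0909 without 36 h replicate 5 and 0.0753 without 36 h replicate 6. FDFT1 (ENSSSCG00000026044), squalene synthase, had 190.3, 182 and 143 FPKM and then 194, 208 and 225 FPKM (log2 change 0.29, interval 0.01 to 0.58, adjusted p = 0.0813). DHCR7 (ENSSSCG00000021181), which forms cholesterol in the last step of one branch, had 31.7, 30.4 and 30.9 FPKM and then 32.1, 36.0 and 39.4 FPKM (log2 change 0.20, adjusted p = 0.0867). FDFT1 and DHCR7 had no overlap and passed after median-ratio scaling, with adjusted p of 0.0322 and 0.0165. The change of FDFT1 was 0.17 without 24 h replicate 6 (adjusted p = 0.108) and 0.47 after median-ratio scaling. It also passed without 24 h replicate 4 (0.0498), and DHCR7 without 36 h replicate 4 (0.0323) and after quantile normalization (0.0347).

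The remaining 4 enzymes of this stretch overlapped between the groups. SQLE (ENSSSCG00000005970), squalene epoxidase, a control point of the pathway, had 102, 94.3 and 90.1 FPKM at 24 h and 77.4, 86.6 and 101 FPKM at 36 h (log2 change -0.12, interval -0.37 to 0.14, adjusted p = 0.384), and its change was 0.06 after median-ratio scaling. CYP51A1 (ENSSSCG00000015311), the lanosterol demethylase just before TM7SF2, had 122, 117 and 103 FPKM and then 109, 116 and 129 FPKM (log2 change 0.05, interval -0.17 to 0.27, adjusted p = 0.681). Both stand just before an enzyme that rose, SQLE before LSS and CYP51A1 before TM7SF2. NSDHL (ENSSSCG00000012758), a C4-decarboxylase, was at 155, 155 and 129.8 FPKM and then 108, 121 and 141 FPKM (log2 change -0.25, adjusted p = 0.115). Its adjusted p was 0.0411 without 24 h replicate 6 and 0.0483 without 36 h replicate 6, but 0.668 after median-ratio scaling, where the change was -0.075. Without 36 h replicate 4 the change was -0.16 (adjusted p = 0.298). HSD17B7 (ENSSSCG00000006337), its partner ketoreductase, was at 15.4 to 21.3 FPKM and then 17.4 to 21.6 FPKM (log2 change 0.03, adjusted p = 0.849).

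**Figure D3:**
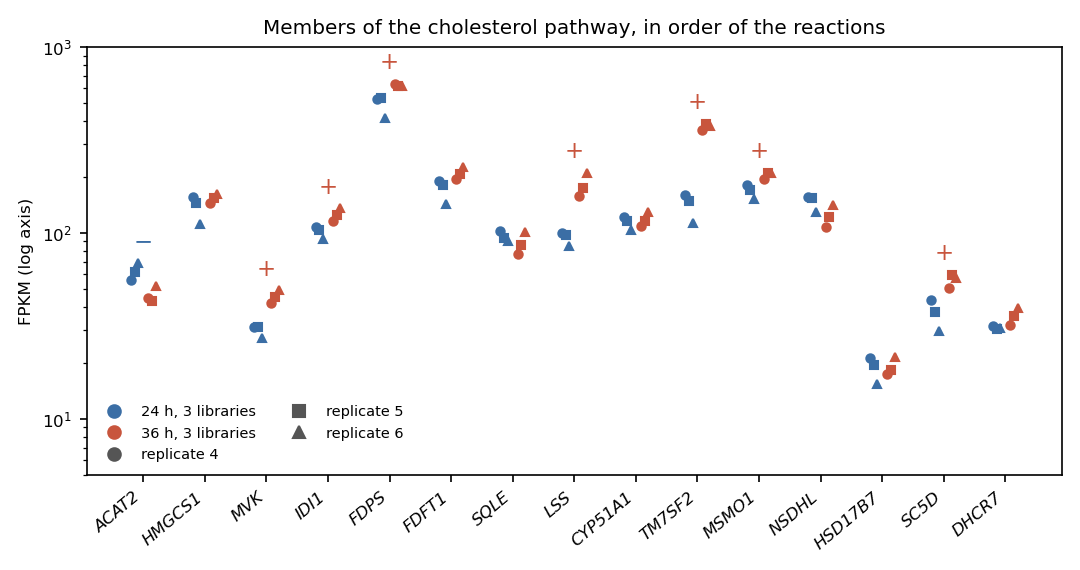
FPKM of the members of the cholesterol pathway, from ACAT2 at its start to DHCR7 near its end. The vertical axis is FPKM on a log scale, blue and red points are the 3 libraries at 24 h and 36 h, circles, squares and triangles are replicates 4, 5 and 6, and a plus or minus sign marks an adjusted p under 0.05 with the 36 h group higher or lower. Plus signs stand at MVK, IDI1, FDPS, LSS, TM7SF2, MSMO1 and SC5D, and the minus sign stands at ACAT2.

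In the control of SREBP, INSIG1 (ENSSSCG00000016420) rose the most. INSIG1 retains SCAP in the endoplasmic reticulum and is itself a known target of SREBP. It had 189, 179.7 and 138 FPKM at 24 h and 347, 372 and 368 FPKM at 36 h. No libraries overlapped, and the mean rose 2.15-fold from 169 ± 27.2 to 363 ± 13.6 FPKM (log2 change 1.11, SE 0.12, adjusted p = 0.0012). Without 24 h replicate 6 the log2 change was 0.97.

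SCAP (ENSSSCG00000026281), the escort protein, had 31.4, 34.4 and 33.3 FPKM at 24 h and 39.6, 38.5 and 39.9 FPKM at 36 h. The rise of 1.19-fold was small, but the libraries of each group were close together (log2 change 0.25, SE 0.06, adjusted p = 0.0145), and it was called in every alternative. SREBF2 (ENSSSCG00000026092), which encodes the SREBP that favours cholesterol genes, had 124, 122 and 113 FPKM and then 129, 134 and 144 FPKM. Its groups did not overlap, yet the change did not pass (log2 change 0.18, interval 0.01 to 0.35, adjusted p = 0.0668), except after median-ratio scaling (0.36, adjusted p = 0.0143). SREBF1 and INSIG2 were not analysed here.

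Neither LXR gene passed the test. NR1H2 (ENSSSCG00000003211), LXR beta, had 39.8, 39.1 and 41.6 FPKM at 24 h and 37.2, 40.3 and 45.7 FPKM at 36 h (log2 change 0.03, interval -0.18 to 0.23, adjusted p = 0.82). NR1H3 (ENSSSCG00000013241), LXR alpha, was lower in level, at 11.5, 12.4 and 13.4 FPKM and then 13.9, 12.1 and 13.8 FPKM (log2 change 0.09, adjusted p = 0.432). It passed after median-ratio scaling (0.25, adjusted p = 0.0356) and quantile normalization (adjusted p = 0.042), and in RefSeq it overlaps MADD and ACP2.

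LPCAT3 and MYLIP, listed under this role as known LXR targets, were higher. Other genes on the list that LXR is known to act on were placed under other roles. LPCAT3 (ENSSSCG00000027205), an acyltransferase that places polyunsaturated chains into membrane phospholipids, had the largest fold rise of the 36 members, from 7.31, 6.14 and 5.12 FPKM to 21.1, 22.6 and 20.1 FPKM. The mean rose 3.44-fold from 6.19 ± 1.10 to 21.3 ± 1.24 FPKM with no overlap (log2 change 1.64, SE 0.12, adjusted p = 0.000664), on 1135 fragments at 24 h and 4767 at 36 h. In RefSeq it overlaps EMG1, which had between 0.540 and 1.24 FPKM. MYLIP (ENSSSCG00000001063), a ubiquitin ligase, had 10.4, 9.49 and 6.90 FPKM and then 15.1, 11.4 and 11.9 FPKM.

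The groups of MYLIP did not overlap and its mean was 1.43-fold higher, but its call was the weakest of the 20 (log2 change 0.48, SE 0.16, adjusted p = 0.0452). It was lost in 7 of the 14 alternatives, with an adjusted p of 0.133 without 36 h replicate 4, 0.0767 and 0.0679 without 24 h replicates 5 and 6, 0.07 and 0.0769 without 36 h replicates 5 and 6, 0.071 with no filter and 0.0519 without the trend.

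In sterol transport and esterification 2 of the 4 tested members fell and the other 2 did not pass. Over all genes tested, 34.4% were called lower. SOAT1 (ENSSSCG00000021464), which esterifies cholesterol for storage, had 12.1, 11.8 and 11.2 FPKM at 24 h and 7.39, 6.18 and 6.53 FPKM at 36 h. It was 1.74-fold lower with no overlap (log2 change -0.72, SE 0.08, adjusted p = 0.0014), and it was called in every alternative, median-ratio scaling included (-0.56, adjusted p = 0.00334). OSBPL3 (ENSSSCG00000016715), a member of the oxysterol binding protein family, had 2.25, 2.43 and 4.52 FPKM and then 0.834, 1.19 and 1.28 FPKM. The mean was 2.78-fold lower (log2 change -0.91, SE 0.22, adjusted p = 0.0144), on 421 and 184 fragments. The value of 24 h replicate 6 stood above the other libraries: without it the log2 change was -0.67, and without 36 h replicate 4 the adjusted p was 0.0511.

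The Niemann-Pick proteins NPC1 and NPC2 carry cholesterol out of the lysosome. NPC2 (ENSSSCG00000002366) had 143, 144 and 174 FPKM at 24 h and 115, 131 and 131 FPKM at 36 h, with no overlap and a change just outside the threshold (log2 change -0.28, interval -0.51 to -0.05, adjusted p = 0.0506). It passed with quantile normalization (0.0399), the replicate block (0.0309), voom (0.0453) and an FPKM minimum of 5 (0.0494), and its change was -0.10 after median-ratio scaling. NPC1 (ENSSSCG00000003707) had 8.31, 8.46 and 7.08 FPKM and then 6.94, 7.31 and 8.51 FPKM, with overlap (log2 change -0.06, adjusted p = 0.653, and 0.10 after median-ratio scaling). NPC1L1, the intestinal cholesterol importer, was listed at 0 in all 6 libraries.

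Ratios between members of 1 library do not depend on how libraries are scaled to each other, and are given as a description because the pairs were chosen after their values were seen. FASN to ACACA was 4.28, 4.43 and 4.94 at 24 h and 14.5, 16.0 and 16.4 at 36 h. FASN to ACLY was 0.653, 0.646 and 0.633 and then 1.73, 1.86 and 1.78. Both ratios of FASN were higher in every 36 h library. SCD to ELOVL5 was 11.1, 10.4 and 7.79 and then 24.6, 23.6 and 22.8. SCD to FASN, on the other hand, was 4.03, 3.50 and 2.79 and then 3.37, 2.88 and 2.58, with overlap. The ratio of FASN and SCD to each other thus overlapped between the times, while their ratios to ACACA, ACLY and ELOVL5 did not.

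In the cholesterol pathway LSS to SQLE was 0.982, 1.03 and 0.950 at 24 h and 2.05, 2.02 and 2.08 at 36 h, and TM7SF2 to CYP51A1 was 1.31, 1.27 and 1.09 and then 3.27, 3.33 and 2.90. INSIG1 to SREBF2 was 1.52, 1.47 and 1.22 and then 2.69, 2.78 and 2.56, whereas HMGCS1 to SREBF2 overlapped, at 1.26, 1.19 and 0.994 and then 1.12, 1.15 and 1.12. These ratios varied less between libraries of 1 time than between the times, apart from HMGCS1 to SREBF2. Among the desaturases FADS2 to FADS1 overlapped (3.28 to 3.98 and 3.54 to 3.76), and FADS3 to FADS1 was 0.732, 0.747 and 1.02 and then 0.254, 0.321 and 0.369. SOAT1 to NPC1 was 1.45, 1.39 and 1.58 and then 1.07, 0.845 and 0.768.

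**Figure D4:**
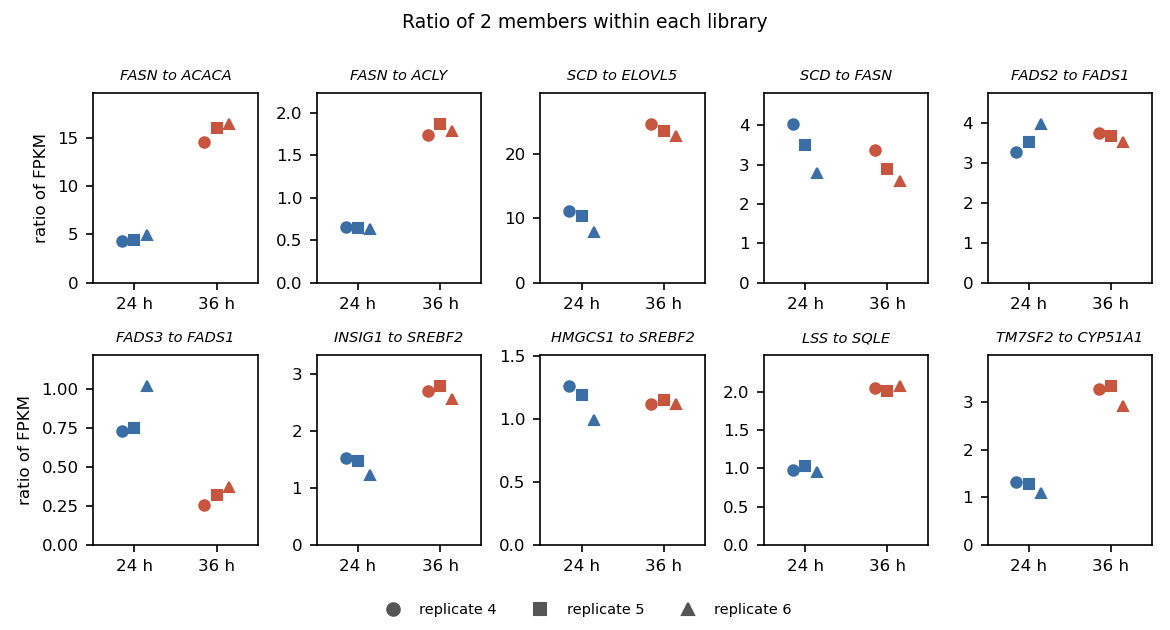
Ratio of the FPKM of 2 members within each library, at 24 h (blue) and 36 h (red). The vertical axis is the ratio from 0 in each panel and symbols mark the replicate number. FASN to ACACA goes from 4.28 to 4.94 at 24 h to 14.5 to 16.4 at 36 h, while SCD to FASN, FADS2 to FADS1 and HMGCS1 to SREBF2 overlap between the times.

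Genes of the same pathways that are not on the list numbered 47, of which 32 were in the table and 26 were tested. Of these, 4 were higher (15.4%, against 16.5% of all genes) and 11 lower (42.3%, against 34.4%), with a median log2 change of -0.18, near the -0.16 of all genes. After median-ratio scaling 5 were higher and 8 lower, with a median of -0.012. The 3 largest rises were in ACSL3, MID1IP1 and ABCA1. ACSL3, which activates fatty acids for lipid synthesis, was at 78.6, 66.4 and 44.4 FPKM and then 111, 104 and 105 FPKM (log2 change 0.79, SE 0.19, adjusted p = 0.0146). MID1IP1, which promotes the assembly of acetyl-CoA carboxylase, was at 44.6, 39.4 and 28.7 FPKM and then 48.7, 56.8 and 69.5 FPKM (log2 change 0.63, SE 0.19, adjusted p = 0.0294). ABCA1, the sterol exporter and an LXR target, was at 2.32, 2.06 and 1.72 FPKM and then 3.89, 3.46 and 3.56 FPKM (log2 change 0.62, SE 0.11, adjusted p = 0.0050). The groups did not overlap in these 3 genes. MID1IP1 lost its call with the replicate block (0.0609) and without 24 h replicate 5 (0.0598), 36 h replicate 5 (0.0772) or 36 h replicate 6 (0.0857).

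The largest falls outside the list were in HACD3, IDH1 and SCD5. HACD3, a dehydratase of very long chain elongation, fell from 29.7, 31.7 and 37.7 FPKM to 14.5, 16.3 and 17.2 FPKM (log2 change -0.998, SE 0.11, adjusted p = 0.00116). IDH1, a source of cytosolic NADPH, fell from 60.6, 68.6 and 101 FPKM to 35.9, 38.7 and 41.4 FPKM (log2 change -0.94, SE 0.18, adjusted p = 0.00601). SCD5, the second stearoyl-CoA desaturase, was at 2.20, 2.25 and 3.58 FPKM and then 0.784, 1.12 and 0.775 FPKM (log2 change -0.94, SE 0.18, adjusted p = 0.0054), opposite in direction to SCD. In level per length, SCD5 was far below SCD in every library. By subgroup, 1 rose and 4 fell among the 10 other sterol genes tested. In the isoprenoid branch 3 of 5 genes fell and the other 2 did not pass. Among 11 other fatty acid genes 3 rose and 4 fell. Over all genes, 16.5% were called higher and 34.4% lower.

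Of the 20 members past the threshold, 14 kept the call in all 6 fits that left out 1 library, and 13 kept it in all 14 alternatives. The share of all called genes that kept theirs was not computed, so these counts describe the members only. These 13 were MVK, LSS, TM7SF2, SC5D, SCAP, INSIG1, LPCAT3, SOAT1, ACSS2, FASN, SCD, FADS1 and FADS2. They include SOAT1 as the only lower gene, since ACAT2, OSBPL3 and ME1 each lost the call in at least 1 alternative. The listed symbols PMVK, MVD, GGPS1, EBP, ERG28, SREBF1, INSIG2, STARD4, TMEM97, ACACB, ELOVL1, ELOVL6 and ELOVL7 were not analysed here.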

How the data were processed

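RNA-seq of 6 PSC libraries was analysed. Per the paper, the authors mapped paired-end reads to Sscrofa11.1 with HISAT2 and counted them with HTSeq, whereas the submitters' processing notes name TopHat2 and Cufflinks. The deposited values are FPKM, 1 column per library, none pooled. The annotation release, the strandedness and the handling of shared reads are not given in the sources used here. A symbol was paired with 11804 of 25322 Ensembl identifiers, and 2944 further rows were unannotated. The 13 members not found have identifiers numbered above the last one of the table, so no coordinates are given.

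Whole fragments were recovered from the steps of the FPKM values within each gene, to a tolerance of 0.01. The library totals are those that the FPKM values imply.

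log2(FPKM + 1) was fitted with limma 3.58.1 (R 4.3.3, eBayes with trend, two-sided) for the 14060 genes averaging 1 FPKM or more, with Benjamini-Hochberg adjustment over all of them and a threshold of 0.05. Such a change understates the fold of low genes. Folds are ratios of mean FPKM. The scripts were run on simulated data with known answers. There, 200 of 14060 genes were changed by 1 on the log2 scale, and limma called 76.5% of them. Of its calls, 3.77% were unchanged genes. In the real data 50.9% of genes were called, so these shares need not hold there. The alternatives were leaving out each library, a replicate block, voom on recovered fragments, quantile or median-ratio scaling, a pseudocount of 0.1, an FPKM minimum of 5 or none, and eBayes with the trend off. An exact permutation test of 3 against 3 cannot give a p under 0.1 and was not used. Members past the threshold are named with values, the others by value or range, and of the other pathway genes the 3 largest rises and falls. The members and lists were chosen with earlier results of these data known. Sequences were not printed. Some genes of these pathways are not reported here.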

Additional observations from a re-analysis of the deposited data

How the results depend on the processing

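Median-ratio scaling moved the number of members called lower from 4 to 2 and the median log2 change of the members from 0.19 to 0.36. Over all genes tested, the share called lower went from 34.4% to 22.2% and the median from -0.16 to -0.0033. Leaving out 1 library gave 12 to 17 members called higher and 2 to 6 called lower, with medians of 0.13 to 0.23. The value of 2 was without 36 h replicate 4. The sign of the log2 change turned after median-ratio scaling in SQLE (0.058) and NPC1 (0.10), and after quantile normalization in NPC1 (0.12) and CYP51A1 (-0.0048). When 1 library was left out it ranged from -0.019 to 0.10 in CYP51A1, -0.094 to 0.13 in HSD17B7 and -0.052 to 0.092 in NR1H2. None of these genes was called in the reported fit, and the cause was not tested. With the replicate block 15 members were higher and 6 lower: IDI1 lost its call, and NPC2 and FADS3 gained one. Deviations of libraries with the same number correlated at 0.15, -0.017 and 0.18 for numbers 4, 5 and 6. Correlations between libraries with different numbers were not computed, so these values cannot decide pairing. The reported fit did not take the numbers as pairs. voom gave 16 higher and 6 lower. Shares of all genes called were not computed for the block, voom and leave-out fits, so these counts describe the members only. With 1 fragment worth 0.0457 to 0.0610 FPKM in a 1 kb gene, depth limits ELOVL2, which rested on 5 fragments and 1 fragment.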
